A study of Mus musculus with 8 samples.

Results

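A set of 10 genes that mark hepatic stellate cells were followed in the livers of *FxrKO* and *Bcl6LKO FxrKO* male mice: *Lrat*, *Reln*, *Hand2*, *Cygb*, *Pdgfra*, *Pdgfrb*, *Ngfr*, *Rgs5*, *Des* and *Acta2*. They were taken by symbol from the 24940 genes of the count table, all 10 were found, and all 10 passed the filter on low counts. Polyadenylated RNA of whole liver was sequenced from 4 males of each genotype, numbered livers 1 to 4 (*FxrKO*) and 5 to 8 (*Bcl6LKO FxrKO*). *FxrKO* mice were Bcl6(fl/fl), FXR(homo), and *Bcl6LKO FxrKO* mice carried Alb-Cre in addition, all on C57BL/6. Both genotypes therefore lacked FXR, the bile acid receptor encoded by *Nr1h4*, in the whole body and carried floxed *Bcl6*, a gene for a transcriptional repressor. The comparison asks what loss of hepatic *Bcl6* added to loss of *Fxr*, and livers with intact *Fxr* were not analysed here. The albumin promoter drives Cre in hepatocytes and not in stellate cells, so the floxed *Bcl6* of stellate cells is not the intended target. The ages of the mice are not given in the sources used here.

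Hepatic stellate cells lie between the sinusoidal endothelium and the hepatocytes. In the quiescent state they store vitamin A as retinyl esters, which *Lrat* makes, and after liver injury they can become contractile, collagen-producing myofibroblasts that express *Acta2*, the gene of smooth muscle actin. PDGF receptors drive their growth and migration, and several of their markers are shared with pericytes, smooth muscle and portal fibroblasts. For the contrast of the cell's states, *Lrat*, *Reln*, *Hand2* and *Cygb* were taken as markers of the quiescent cell, *Acta2* as the marker of the activated cell, and *Des*, *Pdgfra*, *Pdgfrb*, *Ngfr* and *Rgs5* as genes found in both. These assignments were not tested here, and the contrast depends on them.

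The libraries held 7586241 to 11839503 counts, and a single marker gene had 21 to 400 counts in *FxrKO* livers and 40 to 800 in *Bcl6LKO FxrKO* livers. Levels are given as CPM, the count scaled to the size of its library, after TMM scaling, which allows for differences in library composition. The floor of 3 counts corresponds to 0.253 to 0.395 CPM. The targeted *Bcl6* transcript was 49.6 ± 19.4 CPM in *FxrKO* and 7.44 ± 3.24 CPM in *Bcl6LKO FxrKO* livers (SD, n = 4 each), a log2 fold change of -2.72 (SE 0.40, edgeR adjusted p = 0.00123), and was lower in every *Bcl6LKO FxrKO* liver. *Nr1h4* transcripts were counted in both groups, at 60.0 ± 2.46 and 43.5 ± 3.69 CPM, so the count of that gene does not check the FXR label. The 50 most counted genes took 29.8% to 31.2% of counts in *FxrKO* and 40.7% to 44.1% in *Bcl6LKO FxrKO* livers, with *Alb* alone at 4.04% to 5.16% and 11.9% to 13.2%.

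Most of the stellate cell marker genes were higher in *Bcl6LKO FxrKO* livers. Of the 10 genes, 8 rose and 0 fell at an adjusted p under 0.05 (edgeR quasi-likelihood test with Benjamini-Hochberg adjustment over 12340 genes). Over all tested genes, 16.2% rose and 13.5% fell. The markers were chosen with earlier results of these data known, so these shares are no fair comparison. The median log2 fold change of the 10 genes was 0.93, and that of all tested genes was 0.01. In 6 of the 10 genes every *Bcl6LKO FxrKO* liver was above every *FxrKO* liver, which was so for 16.1% of all tested genes. *Lrat* and *Acta2*, the genes most closely tied to the quiescent and the activated state, were the 2 that did not pass the test. The summed level of the 10 genes was 106, 123, 108 and 128 CPM in *FxrKO* livers 1 to 4 and 219, 232, 247 and 228 CPM in *Bcl6LKO FxrKO* livers 5 to 8. Its mean was 116 ± 10.8 and 232 ± 11.9 CPM, a ratio of 1.99. In whole liver RNA, more stellate cells and more RNA of these genes per cell cannot be told apart. The labels give each library a number of its own and do not state that the livers came from separate cages or days. The edgeR p-values set the difference of the genotypes against the spread of these 8 samples within their genotypes.

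**Figure D1:**
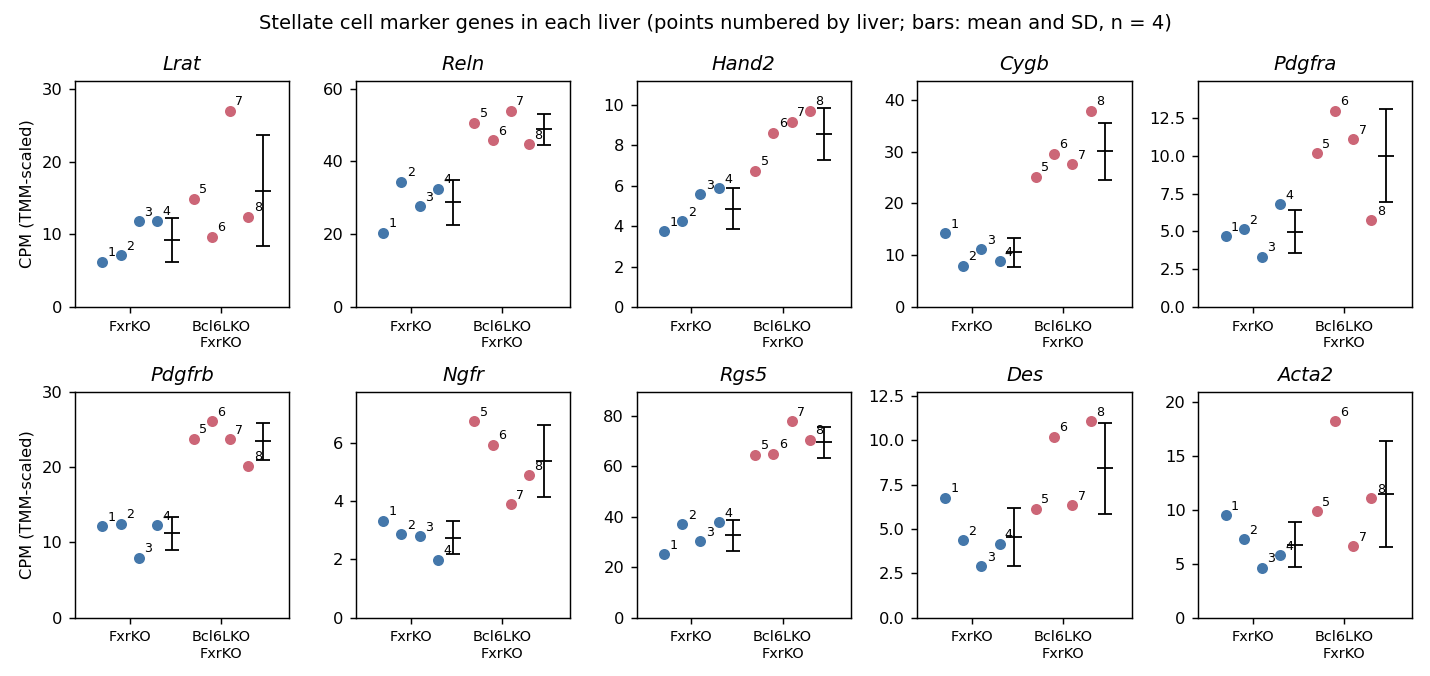
Level of each of the 10 marker genes (CPM, TMM-scaled, y axes from 0) in each liver, with points numbered by liver and bars for the mean and SD of 4 livers per genotype. The genotypes do not overlap for Reln, Hand2, Cygb, Pdgfrb, Ngfr and Rgs5, and overlap for Lrat, Pdgfra, Des and Acta2.

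The promoters of *Acta2*, *Lrat* and *Rgs5* are shown because the first 2 mark the opposite states of the cell and the last had the highest level per length. The 250 bases before each start site were read from RefSeq (GRCm38.p6), whose start sites for these genes are those of the count table. The window of *Acta2* lies at chr19:34255374-34255623 (minus strand), *Lrat* at chr3:82903975-82904224 (minus strand) and *Rgs5* at chr1:169655251-169655500 (plus strand). Capitals mark E-boxes (CANNTG) and CArG boxes, the sites of serum response factor, in which up to 1 of the 6 inner bases differed from A or T. That allowance was chosen after the sequences were seen, because the CArG elements of smooth muscle actin genes are known to carry a G or C in the core.
Acta2: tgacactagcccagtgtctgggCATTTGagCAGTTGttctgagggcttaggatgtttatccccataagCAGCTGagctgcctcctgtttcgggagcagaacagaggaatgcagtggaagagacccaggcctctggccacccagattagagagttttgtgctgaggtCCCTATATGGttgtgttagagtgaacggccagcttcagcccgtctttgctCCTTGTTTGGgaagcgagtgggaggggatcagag
Lrat: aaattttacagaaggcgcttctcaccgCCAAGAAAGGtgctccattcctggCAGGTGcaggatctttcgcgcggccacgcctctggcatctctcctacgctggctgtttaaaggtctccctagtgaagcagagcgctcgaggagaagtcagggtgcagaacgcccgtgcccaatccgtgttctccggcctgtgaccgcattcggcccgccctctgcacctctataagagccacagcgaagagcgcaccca
Rgs5: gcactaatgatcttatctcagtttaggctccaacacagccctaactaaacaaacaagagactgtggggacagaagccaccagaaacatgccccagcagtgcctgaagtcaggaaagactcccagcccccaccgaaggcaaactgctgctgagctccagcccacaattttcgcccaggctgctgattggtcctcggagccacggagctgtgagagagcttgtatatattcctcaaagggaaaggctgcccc
*Acta2* held such CArG boxes at -84 to -75 and at -34 to -25 from its start, and *Lrat* held one at -223 to -214. Such boxes were thus in 2 of the 8 marker genes with a promoter entry (*Cygb* and *Pdgfrb* had none). They were in 8.59% of 32851 promoters of the same length. Because the allowance was chosen after these sequences were seen, these shares are no fair comparison. A strict CArG box was in 0 of the 8, against 1.47% of all. E-boxes were in 7 of the 8, all but *Rgs5*, and in 66.2% of all promoters. The GC box GGGCGG was in 5 of the 8 and in 32.7% of all. Both strands were searched, the matches are descriptions of these letters, and they were not tested as binding sites.

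Of the 4 quiescent markers, *Cygb*, *Reln* and *Hand2* rose and *Lrat* did not pass the test. *Lrat* encodes lecithin retinol acyltransferase, which esterifies retinol for storage. It measured 6.24, 7.12, 11.8 and 11.9 CPM in *FxrKO* livers 1 to 4 and 14.9, 9.71, 27.1 and 12.4 CPM in *Bcl6LKO FxrKO* livers 5 to 8. Liver 7 held more than any other liver, and liver 6 lay below *FxrKO* livers 3 and 4, so the genotypes overlapped. The means were 9.28 ± 3.02 and 16.0 ± 7.66 CPM, a log2 fold change of 0.79 (SE 0.33, 95% interval 0.06 to 1.51, edgeR adjusted p = 0.0969; exact two-sided permutation p = 0.114). The value rested on single livers: it was 0.41 without liver 7, and without liver 6 it was 0.95 and passed the test (edgeR adjusted p = 0.0394).

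*Reln*, the gene of the secreted glycoprotein reelin, measured 20.4, 34.4, 27.6 and 32.5 CPM in livers 1 to 4 and 50.6, 45.9, 54.0 and 44.8 CPM in livers 5 to 8. All *Bcl6LKO FxrKO* livers were above all *FxrKO* livers, with liver 1 the lowest of the 8. The log2 fold change was 0.77 (SE 0.15, 95% interval 0.43 to 1.10, edgeR adjusted p = 0.0024; exact two-sided permutation p = 0.0286, the smallest that 4 against 4 livers can give). *Hand2*, a transcription factor of the stellate lineage, measured 3.75, 4.25, 5.59 and 5.87 CPM against 6.75, 8.62, 9.16 and 9.72 CPM in livers 5 to 8. Its genotypes did not overlap either, and the log2 fold change was 0.81 (SE 0.20, 95% interval 0.38 to 1.24, edgeR adjusted p = 0.00838). An antisense gene, *Hand2os1*, covers 19.6% of the exon bases of *Hand2* on the opposite strand. The strand setting of the authors' counting is not given in the sources used here, so reads of the pair cannot be told apart. On the opposite strand, *Gm15179* also covers 5.86% of the exon bases of *Des*, *Gm42802* 4.55% and *Gm42803* 1.66% of those of *Pdgfra*, and *Gm10475* 1.04% of those of *Reln*.

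*Cygb*, the gene of cytoglobin, a globin of stellate cells, had the largest log2 fold change of the 10 genes. It measured 14.3, 8.0, 11.2 and 8.89 CPM in livers 1 to 4 and 25.2, 29.6, 27.6 and 38.0 CPM in livers 5 to 8. Liver 1 was the highest *FxrKO* liver and still below liver 5, the lowest of the other genotype. The means were 10.6 ± 2.79 and 30.1 ± 5.55 CPM, a log2 fold change of 1.50 (SE 0.19, 95% interval 1.09 to 1.91, edgeR adjusted p = 7.75e-05). *Cygb* shares 8.62% of its exon bases with *Prcd* on the opposite strand, which had at most 5 counts in any liver.

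All 5 genes found in both states rose, and they were led by *Rgs5* and *Pdgfrb*. *Rgs5*, a regulator of G protein signalling that also marks pericytes, measured 25.2, 37.1, 30.4 and 37.8 CPM in livers 1 to 4 and 64.6, 65.0, 77.9 and 70.6 CPM in livers 5 to 8. The genotypes were far apart relative to their spread, with SDs of 5.99 and 6.22 CPM around means of 32.6 and 69.5 CPM. The log2 fold change was 1.09 (SE 0.14, 95% interval 0.79 to 1.39, edgeR adjusted p = 8.21e-05).

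*Pdgfrb*, the receptor through which PDGF-B drives stellate cell growth, measured 12.2, 12.5, 7.95 and 12.3 CPM in livers 1 to 4 and 23.8, 26.1, 23.7 and 20.2 CPM in livers 5 to 8. Liver 3 was apart from the other *FxrKO* livers, and the genotypes did not overlap. The log2 fold change was 1.06 (SE 0.16, 95% interval 0.71 to 1.41, edgeR adjusted p = 0.000347). *Pdgfra*, the receptor for PDGF-A, measured 4.68, 5.12, 3.33 and 6.81 CPM against 10.2, 13.0, 11.1 and 5.72 CPM. Liver 8 fell below *FxrKO* liver 4, so its genotypes overlapped although the gene passed the test. The log2 fold change was 0.99 (SE 0.27, 95% interval 0.41 to 1.56, edgeR adjusted p = 0.0141; exact two-sided permutation p = 0.0571).

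*Ngfr*, the low-affinity neurotrophin receptor p75, had the lowest counts of the 10 genes. It measured 3.33, 2.87, 2.79 and 1.99 CPM in livers 1 to 4 and 6.75, 5.95, 3.90 and 4.90 CPM in livers 5 to 8. Every *Bcl6LKO FxrKO* liver was above every *FxrKO* liver, and the log2 fold change was 0.97 (SE 0.24, 95% interval 0.44 to 1.49, edgeR adjusted p = 0.00942). *Des*, the muscle-type intermediate filament desmin used to stain rodent stellate cells, measured 6.76, 4.37, 2.90 and 4.16 CPM against 6.14, 10.2, 6.33 and 11.1 CPM. Livers 5 and 7 lay below *FxrKO* liver 1. The log2 fold change was 0.89 (SE 0.27, 95% interval 0.29 to 1.48, edgeR adjusted p = 0.028; exact two-sided permutation p = 0.0857). This call was lost when liver 2, 3, 4, 6 or 8 was left out, with log2 fold changes of 0.86, 0.72, 0.84, 0.78 and 0.72 and adjusted p-values of 0.0664 to 0.0835.

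*Acta2*, the activation marker, measured 9.47, 7.25, 4.62 and 5.77 CPM in *FxrKO* livers 1 to 4 and 9.87, 18.2, 6.62 and 11.1 CPM in *Bcl6LKO FxrKO* livers 5 to 8. Liver 6 held the most, and liver 7, the highest liver for *Lrat*, lay below *FxrKO* livers 1 and 2. The means were 6.78 ± 2.09 and 11.4 ± 4.88 CPM, a log2 fold change of 0.75 (SE 0.30, 95% interval 0.10 to 1.39, edgeR adjusted p = 0.0787; exact two-sided permutation p = 0.114). It passed the test without liver 1 (0.95, edgeR adjusted p = 0.0401) and without liver 7 (0.94, edgeR adjusted p = 0.0223), and was 0.43 without liver 6 (edgeR adjusted p = 0.23).

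**Figure D2:**
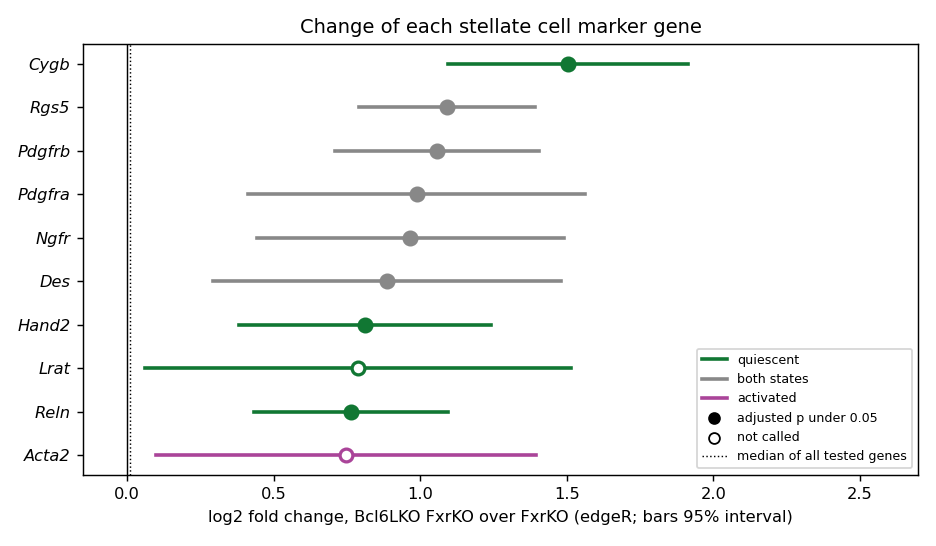
Log2 fold change of each marker gene, Bcl6LKO FxrKO over FxrKO, with its 95% interval (edgeR), coloured by the state the gene marks; filled points passed an adjusted p of 0.05 and the dotted line is the median of all tested genes. The values run from 0.75 for Acta2 to 1.50 for Cygb, and the open points are Lrat and Acta2.

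Per kilobase of transcript, the order of the genes was nearly the same in both genotypes. In *FxrKO* livers *Rgs5* was highest at 7.98 ± 1.46 CPM per kilobase and *Cygb* next at 4.55 ± 1.20. *Acta2* (2.65 ± 0.817), *Reln* (2.47 ± 0.537), *Hand2* (2.18 ± 0.460), *Pdgfrb* (2.08 ± 0.406), *Lrat* (1.74 ± 0.564) and *Des* (1.49 ± 0.528) followed. *Ngfr* (0.808 ± 0.164) and *Pdgfra* (0.759 ± 0.218) were lowest. Only *Rgs5* and *Cygb* were neighbours in that order whose ranges of 1 SD did not meet. In *Bcl6LKO FxrKO* livers *Rgs5* reached 17.0 ± 1.52 and *Cygb* 12.9 ± 2.39 CPM per kilobase, and these 2 were separated by 1 SD from each other and from *Acta2* at 4.47 ± 1.91. *Pdgfrb*, at 4.35 ± 0.454, stood above *Reln* and *Hand2* there, and its range met those of *Acta2* and *Reln* beside it.

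**Figure D3:**
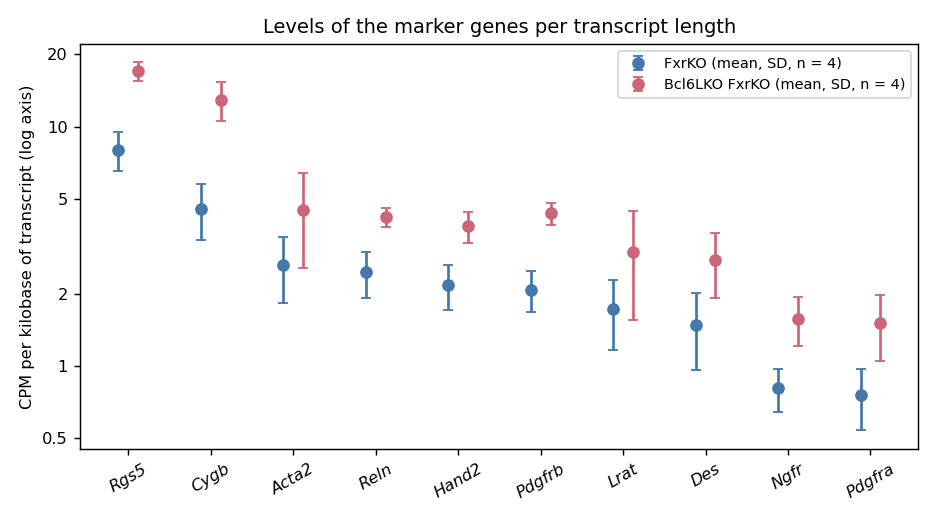
Level of each marker gene per kilobase of its transcript (CPM per kilobase, log axis) as mean and SD of 4 livers per genotype, ordered by the FxrKO level. Rgs5 and Cygb stand above the other genes in both genotypes, at 17.0 and 12.9 in Bcl6LKO FxrKO livers.

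The balance of activated and quiescent markers differed between the genotypes by less than the spread of the livers. The log2 ratio of *Acta2* to *Lrat* was 0.60, 0.03, -1.36 and -1.05 in livers 1 to 4 and -0.59, 0.91, -2.03 and -0.17 in livers 5 to 8. Its means were -0.44 ± 0.91 and -0.47 ± 1.22, a difference of -0.03 that ran from -0.49 without liver 6 to 0.49 without liver 7. Liver 6 lay at one end of the range and liver 7 at the other. Set against the mean of all 4 quiescent markers, *Acta2* was at -0.69 ± 0.64 and -0.95 ± 0.77 on the log2 scale, a difference of -0.26 (-0.57 without liver 6 and 0.06 without liver 7). Most of it came from *Cygb*: the log2 ratio of *Acta2* to *Cygb* differed by -0.81. The difference of -0.26 therefore depends on taking *Cygb* as a quiescent marker. The log2 ratios of *Lrat*, *Reln* and *Hand2* to *Acta2* differed by 0.03, 0.08 and 0.12. All 4 ratios overlapped between the genotypes. Both genotypes held livers of high *Acta2* and low *Lrat* and livers of the reverse.

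Within each genotype the livers fell in nearly contrary orders for the 2 genes. Liver 1 was the highest *FxrKO* liver for *Acta2* and the lowest for *Lrat*, while among *Bcl6LKO FxrKO* livers liver 6 was highest for *Acta2* and lowest for *Lrat*, and liver 7 the reverse. *Des* followed the order of *Acta2* in the *FxrKO* livers and *Hand2* that of *Lrat*, and neither match was seen among the *Bcl6LKO FxrKO* livers. With 4 livers a genotype these orders are descriptions only. Of the 45 ratios between pairs of marker genes, 44 overlapped between the genotypes. The exception was *Reln* to *Rgs5*, whose log2 ratio was lower by a difference of -0.32 in *Bcl6LKO FxrKO* livers. For a single ratio, a share of 0.0286 of the orderings of 4 against 4 livers separates the groups fully. A separation in 1 of 45 ratios can therefore arise by chance, and this ratio was not tested.

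**Figure D4:**
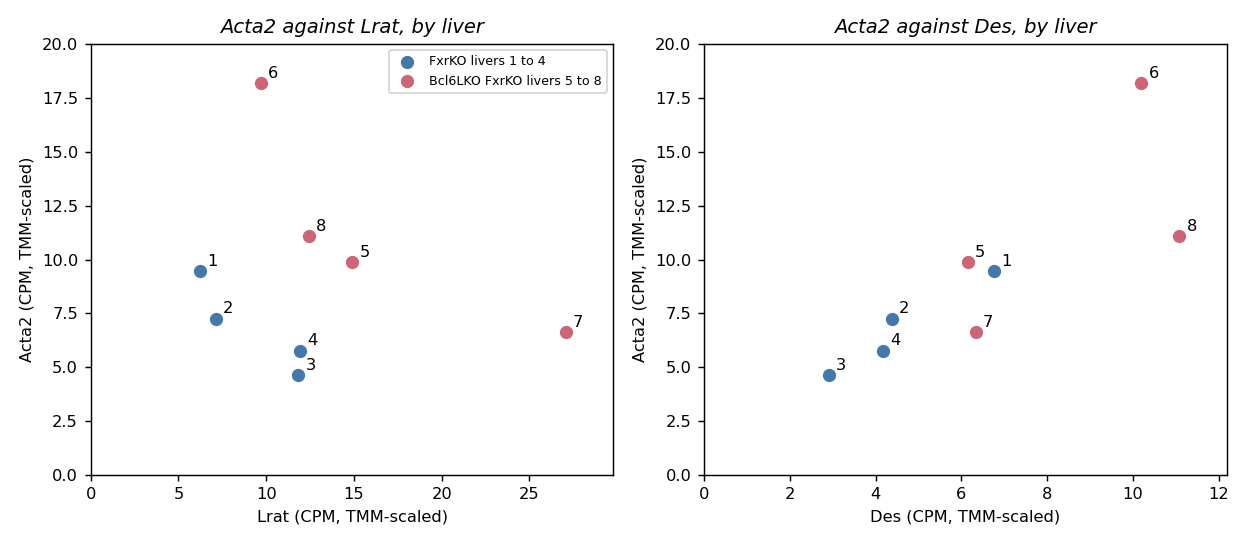
Acta2 against Lrat (left) and against Des (right), each in CPM after TMM scaling, with 1 numbered point per liver. Liver 6 has the most Acta2 (18.2 CPM, with 9.71 CPM of Lrat) and liver 7 the most Lrat (27.1 CPM, with 6.62 CPM of Acta2).

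Other stellate genes of both states were mostly higher in *Bcl6LKO FxrKO* livers. Each change given for them and for the lists that follow is a log2 fold change. The counts of these lists stand beside 16.2% of all tested genes that rose and 13.5% that fell. The lists were chosen with earlier results of these data known, so their counts are no fair comparison with these shares. Of 22 tested genes of a further list for the quiescent cell, 14 rose and 1 fell, with a median log2 fold change of 0.74. *Dcn*, the matrix proteoglycan decorin, rose by 1.05 and *Sod3*, extracellular superoxide dismutase, by 0.89 (edgeR adjusted p = 0.000145 and 9.95e-05). *Cxcl12*, a chemokine, was the gene that fell, by a log2 fold change of -0.52 (edgeR adjusted p = 0.00997). Of 25 tested genes of a list for the activated cell and its matrix, 16 rose and 0 fell, with a median of 0.90. *Tpm2*, a muscle tropomyosin, rose from 2.96 ± 1.05 to 72.6 ± 36.7 CPM (log2 fold change 4.61, SE 0.47, edgeR adjusted p = 0.00018), far from the other genes of that list. *Mmp2*, a gelatinase, rose by 1.23 and *Cnn2*, a calponin, by 1.04 (edgeR adjusted p = 0.00164 and 0.00174). The mean log2 level of the activation list minus that of the quiescent list was -1.29 ± 0.42 in *FxrKO* and -0.94 ± 0.32 in *Bcl6LKO FxrKO* livers, a difference of 0.34 that stayed positive, from 0.22 to 0.55, as single livers were left out. The livers of the genotypes overlapped in it, from -1.65 to -0.68 and from -1.23 to -0.60.

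Genes of retinoid handling were divided. Of 14 tested genes 6 rose and 1 fell, with a median of 0.33. *Cyp26a1*, which degrades retinoic acid, rose by 2.18 (edgeR adjusted p = 6.18e-06) and *Rarb*, a retinoic acid receptor that is itself induced by retinoic acid, by 1.41 (edgeR adjusted p = 0.00116). *Lipe*, hormone-sensitive lipase, fell by 0.99 (edgeR adjusted p = 0.000857). *Rbp4*, the plasma carrier of retinol made by hepatocytes, was at a log2 fold change of -0.22 and did not pass the test (edgeR adjusted p = 0.168). With total counts in place of TMM it was -0.38 and passed (edgeR adjusted p = 0.026).

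The ligands of the PDGF receptors and the partners of reelin and p75 held both larger and smaller changes than the markers. *Pdgfa* rose from 4.38 ± 0.710 to 28.5 ± 8.66 CPM (log2 fold change 2.71, SE 0.23, edgeR adjusted p = 2.33e-06) and *Pdgfb* by 0.94 (edgeR adjusted p = 0.0366), while *Pdgfc* and *Pdgfd* did not pass the test. The call of *Pdgfb* was lost without liver 2, 3, 4, 6, 7 or 8, with edgeR adjusted p-values of 0.0517 to 0.101. Of 7 tested genes of reelin signalling 3 rose and 1 fell, and the median was 0.03. *Lrp8* and *Dab1*, also of that list, were too low to be tested. The reelin receptor *Vldlr* rose by 2.48, *Src* by 1.36 and *Fyn*, which with *Src* phosphorylates the adaptor of the receptor, by 0.61 (edgeR adjusted p = 1.5e-05, 0.0012 and 0.0243), and the adaptor *Crk* fell by 0.45 (edgeR adjusted p = 0.0109). *Fyn* lost its call without liver 1, 2, 3, 6 or 7, with edgeR adjusted p-values of 0.0593 to 0.0694.

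Of 11 tested neurotrophin genes, 7 rose and 1 fell. *Sorcs2*, a sortilin-family receptor that pairs with p75, had at most 3 counts in any *FxrKO* liver and 145 to 192 counts in *Bcl6LKO FxrKO* livers, where it measured 17.2 ± 1.17 CPM. *Bex1*, which binds p75, likewise had at most 3 counts in any *FxrKO* liver and 26 to 115 in the others. With so few counts in *FxrKO* livers no fold is given for these genes, and both passed the test (edgeR adjusted p = 4.57e-08 and 6.17e-05). *Bdnf*, a neurotrophin, was the gene that fell (edgeR adjusted p = 0.00494), from 1.52 ± 0.525 to 0.327 ± 0.280 CPM. It had 10 to 20 counts in *FxrKO* livers and 1 to 6 in *Bcl6LKO FxrKO* livers. The latter lie around the floor of 3 counts, so no fold is given for it either.

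Markers of the other cells that share these genes were counted beside them. Of 7 tested smooth muscle and pericyte genes 4 rose, with a median of 1.08. *Kcnj8* rose from 4.15 ± 0.776 to 25.0 ± 4.54 CPM (log2 fold change 2.60, edgeR adjusted p = 5.11e-07), and *Abcc9*, which joins it in the potassium channel of mural cells, by 1.08 (edgeR adjusted p = 0.00114), and the smooth muscle gene *Smtn* by 1.09 (edgeR adjusted p = 0.000353). The summed level of this list was 32.3 to 41.7 CPM in *FxrKO* and 81.1 to 94.3 CPM in *Bcl6LKO FxrKO* livers. *Cspg4*, *Cnn1*, *Actg2*, *Synpo2* and *Pln* were too low to be tested, and *Cnn1*, *Actg2*, *Myh11* and *Lmod1* are also in the activation list. Of 10 tested portal fibroblast genes 5 rose and 1 fell, with a median of 0.93 and sums of 36.0 to 38.7 and 43.7 to 83.5 CPM. *Thy1* rose by 1.41, *Fbln1* by 1.48 and *Dpt* by 1.38 (edgeR adjusted p = 0.00467, 0.0103 and 0.0158), and *Gas1* fell by 1.49 (edgeR adjusted p = 0.00372). The sum was 83.5 CPM in liver 6 and 43.7 to 53.6 CPM in livers 5, 7 and 8. *Fbln1* and *Dpt* were also highest in liver 6, at 8.13 and 32.9 CPM. With single livers left out they kept their calls and went down to 0.98 and 0.91. *Thy1* had only 9 to 11 counts in *FxrKO* livers. Of 7 mesothelial genes only *Wt1* could be tested, and it did not pass. The part of these cells in the rise of the stellate markers was not tested.

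Markers of endothelial cells, macrophages, cholangiocytes, lymphocytes and hepatocytes were counted in the same way. Of all tested genes 16.2% rose, a share near that of the endothelial genes, and 13.5% fell. Among 12 endothelial genes 2 rose (*Vwf* by 1.60 and *Stab2* by 0.63, edgeR adjusted p = 8.26e-05 and 0.00365), the median was 0.34, and the sums were 231 to 314 and 318 to 403 CPM. Among 10 tested macrophage genes 3 rose (*Lyz2* by 0.81, *Cd68* by 0.93 and *Ccr2* by 1.20, the last lost without any of livers 2 to 7, with edgeR adjusted p-values of 0.0546 to 0.107), the median was 0.32, and the sums were 376 to 539 and 503 to 815 CPM. Among 6 tested cholangiocyte genes 3 rose, with a median of 0.89 and sums of 103 to 169 and 170 to 272 CPM. They were *Prom1* by 4.99, *Spp1* by 1.0 and *Krt19* by 1.28 (edgeR adjusted p = 0.000288, 0.00157 and 0.0271). *Prom1* had only 5 to 13 counts in *FxrKO* livers and 185 to 500 in *Bcl6LKO FxrKO* livers. The list was divided: *Sox9* was at -0.81 and *Tm4sf4* at -0.04, and neither passed the test (edgeR adjusted p = 0.0773 and 0.844). The call of *Krt19* was lost without liver 2, 3, 4, 5, 6 or 8, with edgeR adjusted p-values of 0.0524 to 0.0807. Among 10 hepatocyte genes 4 rose (among them *Alb* by 1.60, *Trf* by 1.26 and *Asgr1* by 1.07) and 2 fell (*Ttr* at -0.76 and *Apob* at -0.45), with a median of -0.10 and sums of 78669 to 85268 and 188716 to 214589 CPM. *Apob* lost its call without liver 1, 2, 3, 4, 5, 7 or 8, with edgeR adjusted p-values of 0.0562 to 0.114, and also with a minimum of 10 counts in every liver (-0.43, edgeR adjusted p = 0.0558). Of the lymphocyte list only *Lck* could be tested, and it rose (edgeR adjusted p = 0.00343). It had 2 to 7 counts in *FxrKO* livers, around the floor of 3 counts, and 11 to 27 in *Bcl6LKO FxrKO* livers, so no fold is given. The sums of that list were 4.16 to 5.91 and 7.96 to 14.0 CPM. The Schwann cell and neuron list held 4 of 8 genes with at most 3 counts in every liver, and the pancreatic list 6 of 8, with *Cela1* lower by a log2 fold change of -1.49. How far these other cells bear on the markers was not tested.

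Relative to the summed endothelial genes, the summed stellate markers were 0.397 to 0.465 in *FxrKO* and 0.566 to 0.722 in *Bcl6LKO FxrKO* livers, without overlap. Relative to the macrophage genes the ratio was 0.238 to 0.288 and 0.280 to 0.435, and to the portal fibroblast genes 2.74 to 3.55 and 2.78 to 5.65, both overlapping. Relative to the smooth muscle and pericyte genes it was lower in *Bcl6LKO FxrKO* livers, at 3.02 to 3.29 and 2.46 to 2.85. Relative to the hepatocyte genes the mean ratio was also lower in *Bcl6LKO FxrKO* livers, at 0.00140 and 0.00117, with overlapping ranges of 0.00127 to 0.00152 and 0.00108 to 0.00131. Relative to the cholangiocyte genes it was 0.629 to 1.05 and 0.854 to 1.45, also overlapping. These sums are set by the few genes of highest level in each list.

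**Figure D5:**
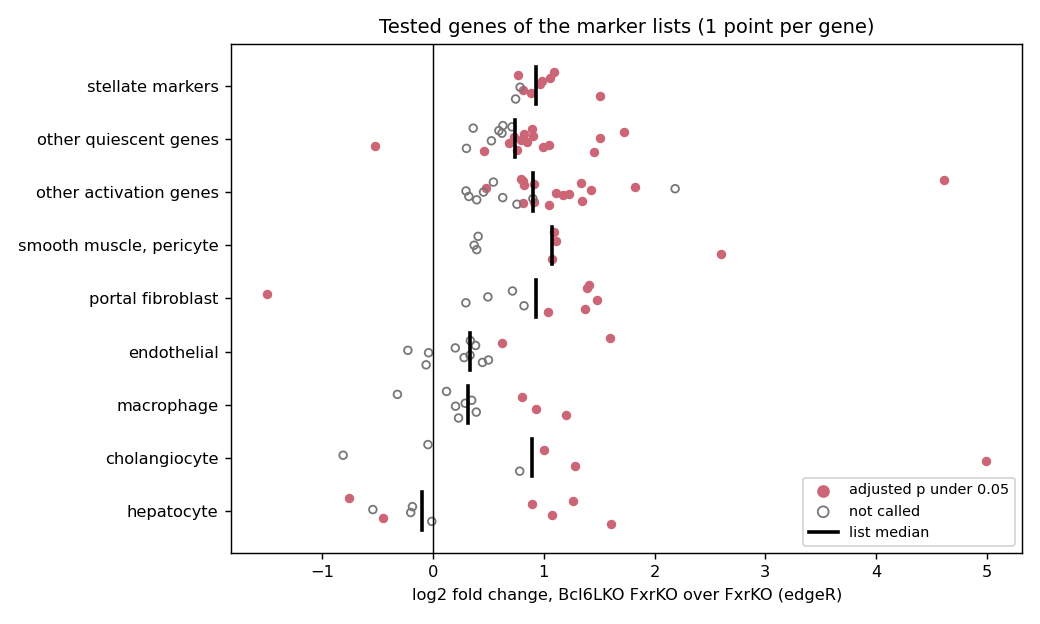
Log2 fold change of every tested gene of 9 marker lists (Bcl6LKO FxrKO over FxrKO, edgeR), 1 point per gene, filled where the adjusted p was under 0.05, with a bar at each list's median. The medians are 0.93 for the stellate markers, 1.08 for smooth muscle and pericyte genes, 0.93 for portal fibroblast genes and 0.89 for cholangiocyte genes. Those of the endothelial and hepatocyte genes are 0.34 and -0.10.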

How the data were processed

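Liver RNA of 8 males was used. The authors prepared stranded mRNA libraries, used STAR 2.5.2 with mm10, and deposited raw exon counts for each gene made with HOMER 4.10 (versions and build per the submitters' processing notes). The table also gives transcript lengths, used here for the levels per kilobase, and 0 columns of sample values were left unused. The paper's methods name DESeq2, which was run as an alternative. The counts were fitted in R 4.3.3 with edgeR 4.0.16 (filterByExpr, TMM, robust quasi-likelihood, Benjamini-Hochberg over 12340 genes), and the code was tested on simulated data. Permutation tests were exact and two-sided. Replicate livers differed beyond sampling noise. All 10 markers were named, with *Bcl6* and *Nr1h4* as a check of the labels, and in each other list the up to 3 genes of smallest adjusted p in each direction, except that some of the latter are not reported here. Markers and lists were chosen with earlier results of these data known. Alternatives were DESeq2 1.42.0, limma 3.58.1, 3 other scalings, 2 filters, a log2 fold threshold of 0.5 and leaving out each liver. The floor of 3 counts covers counting error only. Promoters came from RefSeq. TMM sets levels relative to the bulk of genes, since a larger share taken by a few genes, as by *Alb* here, otherwise lowers all others.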

Additional observations from a re-analysis of the deposited data

Results flagged for a closer look

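One value of a single liver stood apart from its group. *Pdgfrb* in *FxrKO* liver 3 was 7.95 CPM, against 12.2 to 12.5 CPM in the other 3 *FxrKO* livers, and the gap to the nearest was 0.929 of the range of the group of 4 samples, past the 95% critical value of Dixon's test. Of 28 such comparisons, chance would place about 1.4 past that value (1 in 20), and 1 was found. The call of *Pdgfrb* held without liver 3 and without every other liver, with log2 fold changes of 0.92 to 1.12.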

How the results depend on the processing

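No paired analysis was possible because the labels give each liver its own number and state no pairs between genotypes. Some numbers are adjacent across genotypes: liver 1 next to liver 6, liver 7 next to livers 2 and 3, and liver 8 next to livers 3 and 4. Livers 7 and 8 thus have more than 1 possible partner, and liver 5 has none. No label ties these livers, so they were not used as pairs. Livers 1 and 6 were each the highest of their genotype for *Acta2* and the lowest for *Lrat*. Whether they share a litter or day is not stated and was not tested. The count of marker genes that rose was 8 with DESeq2, with limma voom, under each other scaling and filter and with a log2 fold threshold of 0.5. It ran from 7 to 9 as single livers were left out, with 0 that fell. *Cygb*, *Hand2*, *Ngfr*, *Pdgfra*, *Pdgfrb*, *Reln* and *Rgs5* passed in all 15 alternatives. *Des* lost its call without livers 2, 3, 4, 6 and 8. *Lrat* passed in 1 alternative (without liver 6) and *Acta2* in 2 (without livers 1 and 7). With total counts alone in place of TMM, 2949 of all genes fell against 1665, the share that rose among called genes went from 54.5% to 32.3%, and the median shifted by -0.16. With total counts alone *Fyn*, *Pdgfb* and *Ccr2* no longer passed and *Cps1*, *Rbp4*, *Rdh10* and *Sox9* passed as lower. Over single livers left out, 1584 to 1873 genes rose and 1267 to 1668 fell. A value near 0 that changed sign was *Traf6* with at least 10 counts in every liver (0.0120). With single livers left out, *Cdh5* ran from -0.160 to 0.0341, *Crkl* from -0.210 to 0.0245, *Lyve1* from -0.175 to 0.0935, *Tm4sf4* from -0.169 to 0.0639 and *Traf6* from -0.183 to 0.110. For these the cause was not tested.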
